A study of Homo sapiens with 6 samples.

Results

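The YAP and TEAD pathway was described through 10 genes: the coactivators YAP1 and WWTR1 (whose protein is called TAZ), the DNA-binding factors TEAD1 and TEAD4, the inhibitory kinase LATS2, and the target genes CTGF (current symbol CCN2), CYR61 (CCN1), ANKRD1, AMOTL2 and AXL. They were found by gene symbol among 25141 measured genes. Each had 1 transcript cluster, the set of array probes for a transcribed locus, so no choice between clusters was needed. RNA came from A549, an established human lung adenocarcinoma line, stably expressing an shRNA from a lentivirus, either a control shRNA or one that targets S100A4, with 3 arrays a group labelled as biological replicates. Both groups were transduced with lentivirus and grown with 10% serum to about 70% confluence. The labels name 1 shRNA per group and do not say whether a line was a clone, so p-values measure the spread between these arrays and not between shRNAs or lines. Values are log2 signals, on which a difference of 1 is a 2-fold change, and the number of arrays limits their precision.

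The Hippo pathway is a kinase cascade in which the LATS kinases phosphorylate YAP and TAZ and keep them out of the nucleus. When the cascade is off, for instance in spread cells at low density, YAP and TAZ enter the nucleus, bind TEAD factors and switch on genes for matrix proteins, cytoskeletal regulators and growth signals. The pathway is controlled largely through phosphorylation and location of these proteins, which an RNA measurement does not read. LATS2 and AMOTL2 are themselves targets that feed back on YAP. The arrays were compared to find molecules downstream of S100A4, a small calcium-binding protein associated with metastasis.

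The targeted gene was lower on the S100A4 shRNA arrays. S100A4 read 7.57, 7.12 and 7.18 under control shRNA and 5.74, 5.51 and 5.44 under S100A4 shRNA, with a log2 difference of -1.73 (SE 0.13, limma adjusted p = 0.000453, exact permutation p = 0.1, the smallest that 3 against 3 arrays allow). All 3 values under S100A4 shRNA lay below the 95th percentile of the negative control probe sets, so the size of this difference is uncertain. The median of the positive control probe sets, which read housekeeping genes, was 13.54 ± 0.06 with control shRNA and 13.32 ± 0.13 with S100A4 shRNA (SD, n = 3 each), a difference of -0.23 that goes with the same arrays as every result here. Its part in the differences was not tested. Setting these controls equal adds 0.23 to every gene's difference and changes the split of called genes from 1529 higher and 1381 lower to 4838 higher and 315 lower. In RNA from whole cultures, fewer cells that express a gene and less of its RNA per cell cannot be told apart. Epithelial markers had a mean level of 9.03 to 9.09 on the control arrays and 9.06 to 9.26 on the S100A4 shRNA arrays. Of these 7 markers CDH1 (0.97) and KRT19 (0.42) rose, KRT18 (-0.58) and KRT8 (-0.44) fell and 3 were not called by limma, 57.1% called beside 11.6% of all genes. By the authors' deposited p-values EPCAM alone of the 7 passed adjustment (ratio 1.19, adjusted p = 0.045), and these 4 did not (adjusted p = 0.0519 to 0.111). KRT19 and EPCAM lay below the 95th percentile of the negative control probe sets on all 6 arrays. The calls of KRT19 and KRT8 were lost on leaving out any of 2 and any of 4 of the 6 arrays. The 7 fibroblast markers had a mean level of 4.29 to 4.44 and of 4.26 to 4.37. THY1 alone of them was called (-0.31, a call lost on leaving out any of 4 arrays), 14.3% beside 11.6% of all genes. None of the 6 endothelial and 7 leukocyte markers was called by limma (1 and 0 at an unadjusted p under 0.05, 0 and 1 by the authors' deposited p-values after adjustment). The mean levels of all of these non-epithelial markers were below the 95th percentile of the negative control probe sets. With the positive controls set equal KRT8 (-0.21) and THY1 (-0.08) were no longer called. The part of these markers in the differences was not tested.

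**Figure D1:**
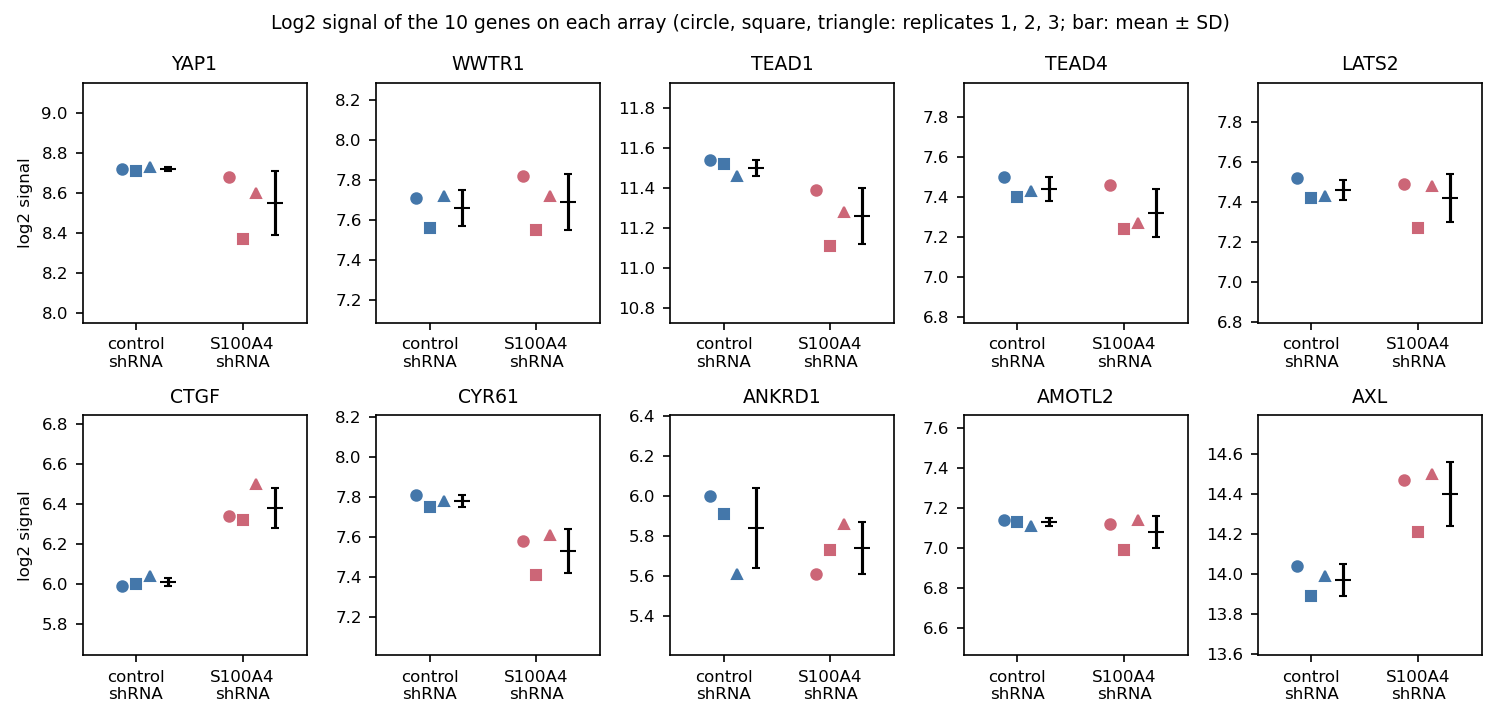
Log2 signal of the 10 genes on each array, with 1 panel a gene, the same span of log2 units on every y axis, and the mean ± SD (n = 3) beside the points. CTGF and AXL lie higher on all 3 S100A4 shRNA arrays than on any control array, and S100A4 shRNA replicate 2 (square) is the lowest array of its group for 9 of the 10 genes.

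CTGF and AXL rose with S100A4 shRNA and the other 8 genes were not called. The 2 called genes of 10 compare with 11.6% called among all genes, 6.08% higher and 5.49% lower. Of all genes 67% lay below the 95th percentile of the negative control probe sets on all 6 arrays, and of the called genes 28.5%. The 11.6%, here and for the lists, is therefore not a share over genes of like signal. When the dimmer 50% of genes were left out limma called 3 of the 10, beside 3548 of 12572 genes. For both directions together 4 of the 10 had an unadjusted limma p under 0.05, CTGF and AXL higher and CYR61 and TEAD1 lower, against 26.4% of all genes. The groups did not overlap for 5 of the 10, namely YAP1, TEAD1, CTGF, CYR61 and AXL, and for 32.8% of all genes. By the p-values of the authors' deposited table, adjusted over the same genes, 0 of the 10 and 2.12% of all genes were called. In that table AXL, CYR61, TEAD4 and AMOTL2, 4 of the 10, had an unadjusted p under 0.05, beside 29.4% of all genes, while CTGF (unadjusted p = 0.0587) and TEAD1 (0.645) did not. After quantile normalization between arrays limma called 4 of the 10, with CYR61 and TEAD1 lower, beside 14.5% of all genes. The median log2 difference of the 10 was -0.073, beside -0.034 over all genes.

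The coactivators carry no DNA-binding domain of their own and act through TEAD. YAP1 read 8.72, 8.71 and 8.73 under control shRNA and 8.68, 8.37 and 8.60 under S100A4 shRNA. The S100A4 shRNA arrays all lay below the control arrays, with the nearest values 8.71 and 8.68, and replicate 2 lay furthest below. The log2 difference was -0.17 (SE 0.09, 95% interval -0.37 to 0.04, limma adjusted p = 0.27), and it was -0.08 without S100A4 shRNA replicate 2 and 0.06 with the positive controls set equal. WWTR1, the gene for TAZ, read 7.71, 7.56 and 7.72 under control shRNA and 7.82, 7.55 and 7.72 under S100A4 shRNA. These groups overlapped, with S100A4 shRNA replicate 1 above every control array and replicate 2 just below them. The log2 difference was 0.03 (95% interval -0.17 to 0.24, limma adjusted p = 0.85), and 0.26 with the positive controls set equal.

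The TEAD factors bring the coactivators to DNA. TEAD1 read 11.54, 11.52 and 11.46 under control shRNA and 11.39, 11.11 and 11.28 under S100A4 shRNA. The groups did not overlap. Its log2 difference of -0.24 (SE 0.08, 95% interval -0.43 to -0.05, unadjusted p = 0.0194) did not pass adjustment in limma (adjusted p = 0.106). It passed after quantile normalization between arrays (adjusted p = 0.0373), and was -0.01 with the positive controls set equal. TEAD4 read 7.50, 7.40 and 7.43 under control shRNA and 7.46, 7.24 and 7.27 under S100A4 shRNA. S100A4 shRNA replicate 1 lay within the control range and the other two arrays below it, for a log2 difference of -0.12 (95% interval -0.30 to 0.06, limma adjusted p = 0.363), which was 0.11 with the positive controls set equal. Of the other TEAD genes, TEAD2 and TEAD3 had log2 differences of -0.03 and -0.02 and were not called.

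LATS2, the kinase that inhibits YAP and TAZ, read 7.52, 7.42 and 7.43 under control shRNA and 7.49, 7.27 and 7.48 under S100A4 shRNA. The groups overlapped, with a log2 difference of -0.04 (95% interval -0.22 to 0.14, limma adjusted p = 0.789). That difference was 0.03 without S100A4 shRNA replicate 2 and 0.19 with the positive controls set equal.

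AMOTL2, an angiomotin-like junction protein that binds YAP, read 7.14, 7.13 and 7.11 under control shRNA and 7.12, 6.99 and 7.14 under S100A4 shRNA. Apart from replicate 2 the S100A4 shRNA arrays lay within the control range, and AMOTL2 was above the 95th percentile of the negative control probe sets on 2 of 6 arrays. The log2 difference was -0.04 (95% interval -0.19 to 0.11, limma adjusted p = 0.712), and 0.18 with the positive controls set equal.

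TEAD factors recognise the letters GGAATG, or CATTCC read on the opposite strand. Both were searched in RefSeq promoter windows of build GRCh38.p14, from 250 bases before to 50 bases after each annotated start. Of the 10 genes 7 had a window, 10 windows in all, and the letters stood in 6 windows of 6 genes, LATS2 being the one with its match after the start. CYR61, TEAD1 and TEAD4 had no window and were not searched. Among all 35116 windows 14% held at least 1 match, 1.37% at least 2 and 0.128% at least 3. CTGF is known as a TEAD target and had 3 matches, beginning 169, 104 and 95 bases before the start. ANKRD1 had 2, beginning 220 and 128 bases before it. The 250 bases before the start of these 2 genes are shown because they carry several matches each while CTGF alone of them was called, and the matches are in capitals. CTGF lies on the minus strand at chr6:131951373-131951622 and ANKRD1 on the minus strand at chr10:90921088-90921337.
CTGF: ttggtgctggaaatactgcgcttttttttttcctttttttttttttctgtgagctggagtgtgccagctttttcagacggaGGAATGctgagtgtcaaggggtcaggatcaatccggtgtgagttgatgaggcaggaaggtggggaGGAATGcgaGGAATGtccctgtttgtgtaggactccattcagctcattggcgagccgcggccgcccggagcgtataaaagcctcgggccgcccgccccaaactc
ANKRD1: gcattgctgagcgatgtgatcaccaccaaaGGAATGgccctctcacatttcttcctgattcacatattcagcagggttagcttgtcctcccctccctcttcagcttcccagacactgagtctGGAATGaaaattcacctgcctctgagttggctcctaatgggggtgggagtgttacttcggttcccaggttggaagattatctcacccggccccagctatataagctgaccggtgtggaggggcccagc

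AXL and AMOTL2 held 1 match each, at the second of their annotated starts, and YAP1 held 1. The 30 bases around each are shown to set the called AXL beside the genes that were not called, with the match in capitals, at chr19:41226531-41226560 on the plus strand for AXL, chr3:134374499-134374528 on the minus strand for AMOTL2 and chr11:102110273-102110302 on the plus strand for YAP1. A match of these letters is a description and does not show binding. Whether the matches go with the differences was not tested.
AXL: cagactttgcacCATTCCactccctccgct
AMOTL2: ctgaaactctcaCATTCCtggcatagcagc
YAP1: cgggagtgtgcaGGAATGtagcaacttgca

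CTGF and CYR61 encode secreted matricellular proteins of the CCN family and are the targets most used as a readout of YAP. CTGF read 5.99, 6.0 and 6.04 under control shRNA and 6.34, 6.32 and 6.5 under S100A4 shRNA. Every S100A4 shRNA array lay above every control array. CTGF rose by a log2 difference of 0.38 (SE 0.07, 95% interval 0.22 to 0.54, 1.30-fold, limma adjusted p = 0.0127). The call held without each array in turn (limma adjusted p 0.0199 to 0.0461) and with the positive controls set equal (difference 0.60). It was lost when all transcript clusters were tested (adjusted p = 0.0638). The authors' deposited table gave a ratio of 1.21 (S100A4 shRNA over control shRNA) and, over the same genes, an adjusted p of 0.182. On all 6 arrays the CTGF signal was above the median of the negative control probe sets and below their 95th percentile (7.13 to 7.36), so the size of its difference is uncertain. Of all genes 67% lay below that percentile on all 6 arrays, and of the called genes 28.5%.

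CYR61 was measured in the other direction. It read 7.81, 7.75 and 7.78 under control shRNA and 7.58, 7.41 and 7.61 under S100A4 shRNA, and every S100A4 shRNA array lay below every control array. The log2 difference of -0.25 (SE 0.07, 95% interval -0.41 to -0.08, unadjusted p = 0.00912) did not pass adjustment in limma (adjusted p = 0.0665). It passed after quantile normalization (adjusted p = 0.0143) and when the dimmer 50% of genes were left out (adjusted p = 0.0334), and was -0.02 with the positive controls set equal. The differences of CTGF and CYR61 were 0.62 apart, a quantity that centring of the arrays does not move. Its exact permutation p was 0.1, two-sided, the smallest possible (n = 3 each). That p was fixed once both genes separated the groups in opposite directions, so it adds no support.

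Elsewhere in the CCN family CCN5, which lacks a domain that the other CCN proteins carry, rose by a log2 difference of 1.01 (SE 0.09, limma adjusted p = 0.000815), reading 6.30, 6.30 and 6.48 under control shRNA and 7.38, 7.22 and 7.50 under S100A4 shRNA. Its control arrays all lay below the 95th percentile of the negative controls, as did 1 S100A4 shRNA array, so the size of this difference is uncertain. CCN5 had a ratio of 1.34 in the authors' deposited table and did not pass adjustment there (adjusted p = 0.0586). In all, 2 of the 6 CCN genes, CTGF and CCN5, rose, 0 fell and 4 were not called, 33.3% called beside 11.6% of all genes. An unadjusted limma p under 0.05 was found for 3 of the 6, 2 higher and 1 lower, beside 26.4% of all genes.

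ANKRD1, a muscle ankyrin repeat protein that is induced by stretch and by YAP, read 6.0, 5.91 and 5.61 under control shRNA and 5.61, 5.73 and 5.86 under S100A4 shRNA. The groups overlapped and the control arrays alone spanned more than the difference between the means. The log2 difference was -0.10 (SE 0.11, 95% interval -0.37 to 0.16, limma adjusted p = 0.609), and 0.12 with the positive controls set equal. Its signal was below the 95th percentile of the negative controls on all 6 arrays. None of the 3 measured muscle ankyrin repeat genes was called by limma, and 0 had an unadjusted p under 0.05. ANKRD2 had a log2 difference of -0.17 (limma adjusted p = 0.257) and was below that percentile on all 6 arrays too.

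AXL, a receptor tyrosine kinase bound by the ligand GAS6, read 14.04, 13.89 and 13.99 under control shRNA and 14.47, 14.21 and 14.50 under S100A4 shRNA. The S100A4 shRNA arrays all lay above the control arrays, with replicate 2 nearest to them. AXL rose by a log2 difference of 0.42 (SE 0.09, 95% interval 0.21 to 0.64, 1.34-fold, limma adjusted p = 0.0242). Leaving out control replicate 2 (limma adjusted p = 0.0801), control replicate 3 (0.075), or replicates 1 (0.0832) or 3 (0.0825) of the S100A4 shRNA ended the call, and so did testing all transcript clusters (0.0898). The authors' deposited table gave a ratio of 1.17 and an adjusted p of 0.101. AXL was the only one called of 5 genes of the TAM receptors and their ligands, 20% beside 11.6% of all genes. GAS6 had a log2 difference of 0.07 (limma adjusted p = 0.462) and the related receptor TYRO3 one of -0.05 (adjusted p = 0.609). Both lay below the 95th percentile of the negative controls on all 6 arrays, so a change in them could be missed.

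**Figure D2:**
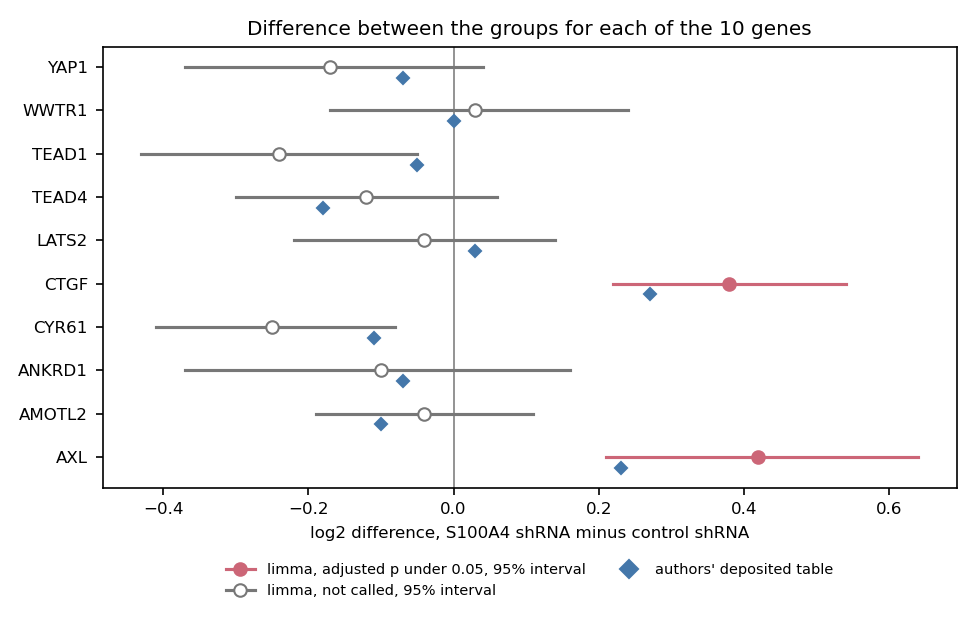
Log2 difference, S100A4 shRNA minus control shRNA, for each of the 10 genes, with the limma estimate and its 95% interval (circles, filled where called) and the difference in the authors' deposited table (diamonds). The intervals of CTGF, AXL, CYR61 and TEAD1 leave out 0, and adjustment over all genes leaves CTGF and AXL called.

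The other genes of the pathway were taken by role. Of 17 kinases, scaffolds and upstream regulators of the cascade 1 rose, 2 fell and 14 were not called, 17.6% called beside 11.6% of all genes. Their median log2 difference was 0.047. NF2, the membrane scaffold merlin that recruits LATS kinases, read 9.75, 9.47 and 9.65 under control shRNA and 8.73, 8.74 and 8.80 under S100A4 shRNA. The groups were separated by far more than the spread within either, and NF2 fell by 0.87 on the log2 scale (SE 0.08, limma adjusted p = 0.00101). FRMD6, a FERM-domain protein related to Drosophila Expanded, which acts upstream of the kinases in the fly, fell by 0.54 (SE 0.06, limma adjusted p = 0.00231). TAOK3, a kinase of the family that phosphorylates the Hippo kinases, rose by 0.41 (limma adjusted p = 0.0243), a call that ended on leaving out replicate 2 or 3 of the control or replicate 1 of the S100A4 shRNA (adjusted p up to 0.0892). In the authors' deposited table TAOK3 had a ratio of 1.32 and did not pass adjustment (adjusted p = 0.0752). The core kinases STK3, STK4 and LATS1 had log2 differences of 0.18, -0.12 and 0.16 and were not called.

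Among 17 junction proteins and giant cadherins 1 fell, 0 rose and 16 were not called, 5.88% called beside 11.6% of all genes. In the higher direction 3 had an unadjusted limma p under 0.05. FAT4, a giant cadherin whose Drosophila relative Fat acts upstream of Hippo, read 6.95, 7.03 and 6.78 under control shRNA and 5.97, 5.93 and 6.01 under S100A4 shRNA. The groups lay apart and FAT4 fell by 0.95 on the log2 scale (SE 0.08, limma adjusted p = 0.000553). All 6 of its values were above the median and below the 95th percentile of the negative controls, so the size of this difference is uncertain. NF2, FRMD6 and FAT4 were each called without any 1 array (largest adjusted p 0.016, for FRMD6) and with the positive controls set equal (differences of -0.64, -0.31 and -0.72). They were smaller in the authors' deposited table, where their ratios were 0.775, 0.853 and 0.692 and none passed adjustment (adjusted p = 0.0743, 0.121 and 0.052).

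Of 10 coactivators, TEAD factors and vestigial-like cofactors VGLL3 rose, 0 fell and 9 were not called, 10% called beside 11.6% of all genes. In the lower direction 1 had an unadjusted limma p under 0.05. VGLL3, a cofactor that binds TEAD factors in place of YAP and TAZ, read 6.83, 6.58 and 6.72 under control shRNA and 7.83, 7.28 and 7.53 under S100A4 shRNA. All S100A4 shRNA arrays lay above the control arrays, with a wider spread. The log2 difference was 0.84 (SE 0.14, limma adjusted p = 0.0088), and the ratio in the authors' deposited table was 1.34 (adjusted p = 0.0805). VGLL3 was above the 95th percentile of the negative controls on 0 of 3 control and 2 of 3 S100A4 shRNA arrays, so the size of this difference is uncertain too.

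A wider list of 22 YAP and TAZ targets, which holds 6 of the 10 genes, was mixed in direction. In it 6 rose, 3 fell and 13 were not called, 40.9% called beside 11.6% of all genes, and its median log2 difference was -0.052. When the dimmer 50% of genes were left out limma called 11 of the 21 targets that remained, 6 higher and 5 lower. Of all genes that remained it called 3548 of 12572. NT5E, the ectoenzyme that makes adenosine, rose by 2.69 (SE 0.09, limma adjusted p = 1.88e-05) and was the largest change of the list, with single arrays at 9.25, 9.32 and 9.16 and at 11.95, 11.76 and 12.08. The secreted matrix protein CCDC80 rose by 0.73 (limma adjusted p = 0.00401), the growth factor TGFB2 by 0.59 (adjusted p = 0.00939) and the membrane protein CRIM1 by 0.41 (adjusted p = 0.0178). FJX1, the relative of Drosophila four-jointed, fell by 0.38 (limma adjusted p = 0.0157), the binding protein of insulin-like growth factors IGFBP3 by 0.32 (adjusted p = 0.0402) and the forkhead factor FOXF2 by 0.74 (adjusted p = 0.0485). FJX1 and FOXF2 lay below the 95th percentile of the negative controls on all 3 S100A4 shRNA arrays.

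The count of 9 called targets depended on single arrays. It was 4 without control replicate 2, 4 without control replicate 3 and 5 without S100A4 shRNA replicate 1, and it was 3 when all transcript clusters were tested. The calls of NT5E, CCDC80 and TGFB2 held without each array, while those of CRIM1, FJX1, IGFBP3 and FOXF2 were lost without 4, 3, 5 and 5 of the 6 arrays. With the positive controls set equal 7 targets were called higher and 1 lower, and FJX1 and IGFBP3 were no longer called. By the authors' deposited table NT5E alone of the list passed adjustment (ratio 2.64, adjusted p = 0.0301).

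**Figure D3:**
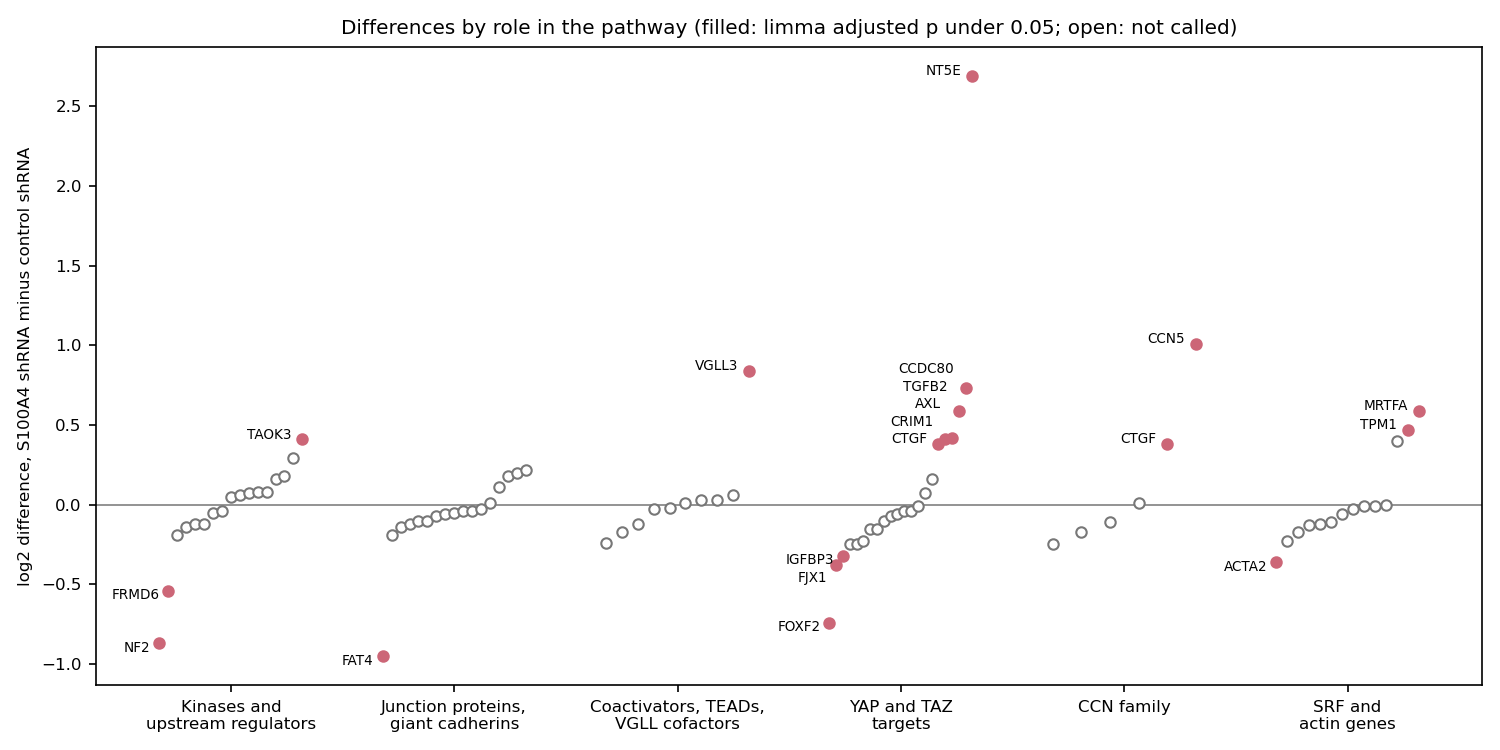
Log2 difference, S100A4 shRNA minus control shRNA, for each measured gene by its role, sorted within a role, filled and named where the limma adjusted p was under 0.05. NF2, FRMD6 and FAT4 lie lowest among the regulators, VGLL3 lies highest among the nuclear factors, and the targets spread to both sides of 0 with NT5E at 2.69.

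Serum response factor (SRF) and its actin-sensing coactivators share targets such as CTGF and CYR61 with YAP. Of 14 SRF, coactivator and actin-related genes, which hold neither CTGF nor CYR61, 2 rose, 1 fell and 11 were not called. That is 21.4% called beside 11.6% of all genes. The coactivator MRTFA rose by 0.59 (SE 0.10, limma adjusted p = 0.00873) and the tropomyosin TPM1 by 0.47 (SE 0.07, adjusted p = 0.00736), while ACTA2 fell by 0.36 (SE 0.06, adjusted p = 0.00944), a call lost with the positive controls set equal (difference -0.14). ACTA2 was below the 95th percentile of the negative controls on all 6 arrays. SRF itself, also below that percentile on all 6 arrays, was not called, at -0.17. By the authors' deposited p-values none of MRTFA, TPM1 and ACTA2 passed adjustment (ratios 1.2, 1.15 and 0.847, adjusted p = 0.101, 0.0685 and 0.0607).

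Within the S100A4 shRNA group 1 array read low for most of the 10 genes. S100A4 shRNA replicate 2 was the lowest of its 3 arrays for 9 of the 10, ANKRD1 being the exception, and for 60.4% of the genes above the median by mean signal. The 10 genes had a median deviation of -0.131 from the group mean on that array, where all genes above the median had one of -0.054. That array also had the lowest median of the positive control probe sets. Without it the log2 differences of CTGF and AXL were 0.41 and 0.51, and those of TEAD1 and CYR61 were -0.17 and -0.19.

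Across the 6 arrays the genes closest to CTGF in their deviations from their own mean were MRPL33, RNF11 and BACE1-AS, with root mean square differences of 0.0317, 0.0327 and 0.0355 log2 units. Those closest to CYR61 were EIF3D, UBE2O and RPL23, at 0.0186, 0.0194 and 0.0215. Non-coding transcripts named after the 10 genes were also on the array. None of 7 was called by limma over all 67528 clusters, and the intronic transcript WWTR1-IT1 read 10.29 ± 0.09 with control shRNA and 10.35 ± 0.05 with S100A4 shRNA (SD, n = 3 each).

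**Figure D4:**
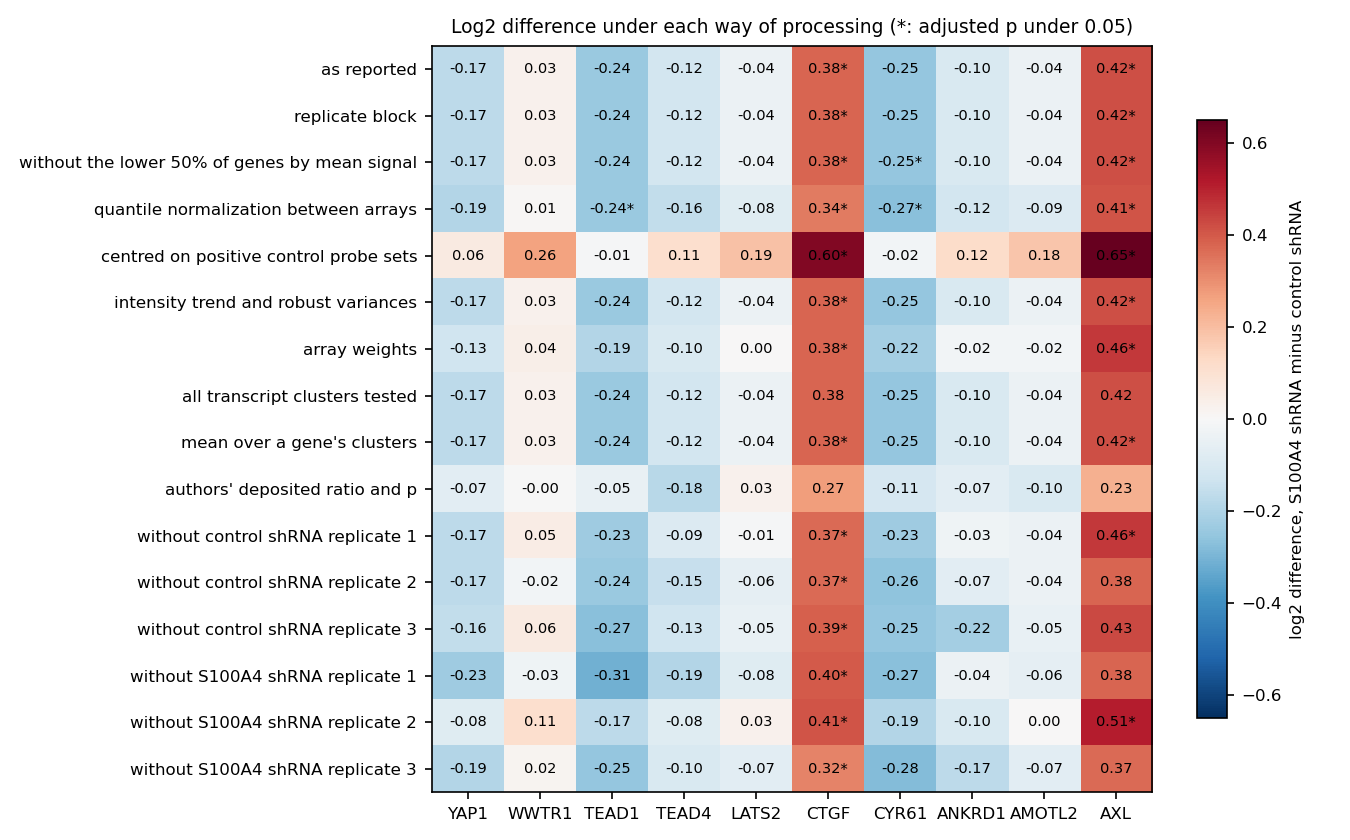
Log2 difference, S100A4 shRNA minus control shRNA, of each of the 10 genes (columns) under each way of processing (rows), with a star where the adjusted p was under 0.05. CTGF and AXL are positive in every row, and with the positive controls set equal YAP1, TEAD4, LATS2, ANKRD1 and AMOTL2 change from below 0 to above it.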

How the data were processed

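Total RNA of A549 cells was amplified and biotin-labelled for a whole-transcript array, per the labels' protocols. A table of log2 signal for each transcript cluster on each array was deposited; its summarisation program is not stated. A workbook by the authors adds log2 means of both groups, a p-value without adjustment and the ratio of the groups, per the file headers, and signed fold changes (a score), which were not used. The tool listed is Partek 6.0, per the submitters' processing notes. Gene levels in these 2 sources correlated across genes at r = 0.78.

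Symbols came from the workbook and were updated through RefSeq (GRCh38.p14). Per gene, the cluster of highest mean was kept, which turned 26831 clusters with a symbol into 25141 genes. No signal filter was used. Log2 values were fitted with limma 3.58.1 in R 4.3.3 (lmFit, eBayes, two-sided, no block). P-values were adjusted over all genes by Benjamini-Hochberg, and genes under 0.05 were called. The fit was tested on simulated data. SDs are over 3 arrays and intervals are limma's 95%.

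The 10 genes and the lists were chosen with earlier results of these data known, so the counts over a list are descriptions. All 10 genes are named. Of each list up to 4 called genes in each direction with the smallest p are named, or 2 with the smallest p where none was called. STK3, STK4, LATS1, TEAD2, TEAD3, SRF, EPCAM and WWTR1-IT1 were named after their values were seen. The genes nearest to CTGF and CYR61 were sought among those above the median signal. Culture time is given as 3 days in 1 label and 2 days in another. Alternatives covered the block, filter, normalization, centring, variances, array weights, clusters, the authors' table and each array.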

Additional observations from a re-analysis of the deposited data

How the results depend on the processing

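The number of the 10 genes called was 4 after quantile normalization, 0 with all transcript clusters tested and 0 with the authors' deposited p-values (4 of the 10 had an unadjusted p under 0.05 there, beside 29.4% of all genes), against 2 as reported, and 1 to 2 without 1 array in turn. The number of all genes called was 5153 with the positive controls set equal, 3636 (14.5%) after quantile normalization, 1180 with all transcript clusters tested and 532 with the authors' deposited p-values, against 2910, and 1539 to 2583 without 1 array. The number of the 22 targets called was 3 with all transcript clusters tested and 1 with the authors' p-values, against 9, and 4 to 7 without 1 array. Testing all clusters both refits the variances and adjusts over more features, and the part of each was not tested. The cause of the other changes was not tested either. S100A4 kept its direction and its call under all 15 alternatives.

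With the positive controls set equal, which adds 0.23 to every difference, these genes changed sign: YAP1 (0.06), TEAD4 (0.11), LATS2 (0.19), ANKRD1 (0.12), AMOTL2 (0.18), TYRO3 (0.18), ANKRD2 (0.06), and the markers CLDN5 (0.08), KDR (0.13), CD3E (0.05) and PTPRC (0.14). None of these was called in either setting. LATS2 also changed sign with array weights (0.0023), in the authors' deposited table (0.03) and without S100A4 shRNA replicate 2 (0.03), and ran from -0.08 to 0.03 as arrays were left out. WWTR1 changed sign in the authors' deposited table (-0.0034), without control replicate 2 (-0.02) and without S100A4 shRNA replicate 1 (-0.03), and AMOTL2, between -0.07 and 0.0035 as arrays were left out, without S100A4 shRNA replicate 2.

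With the replicate number as a block 2883 genes, 2 of the 10 genes and 9 of the targets were called. The same-numbered arrays share only a number: their deviations from the group means correlated at 0.084, 0.166 and -0.009, and not every array correlated best with its own number. Signal over background limits the size of differences for genes below the 95th percentile of the negative controls on all 6 arrays. Among those described above were CTGF, ANKRD1, ANKRD2, FAT4, ACTA2, GAS6, TYRO3, STK3, TEAD3 and SRF. The markers KRT19, EPCAM, THY1, CLDN5, KDR, CD3E and PTPRC were too. The same limit holds for genes below it on all 3 arrays of 1 group (CCN5, VGLL3, FJX1, FOXF2 and the targeted gene S100A4).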
